A study of Mus musculus with 3 samples.

Results

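The genes described here code for integrins, laminins and nidogens, the cell-surface receptors and matrix proteins that hold a muscle cell to its basement membrane. They were chosen by symbol, as the rows of the gene read-count table that begin Itga, Itgb or Itgav, Lama, Lamb or Lamc with a number, or Nid1 and Nid2, leaving out the Itgb1bp genes. The rule found 34 of 20162 genes: 12 integrin alpha chains, 8 integrin beta chains, 11 laminin chains, 2 nidogens and Itgb3bp. Itgb3bp is a centromere protein that matches the rule only by its name, and it is kept in the counts and described apart from the integrins. Members of these families outside the table were not analysed here.

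The cells were C2C12, a mouse myoblast line that forms multinucleated myotubes when serum is lowered. 2 populations carried lentiviral short hairpin RNAs (shRNAs) against Tead4, a transcription factor that binds DNA through its TEA domain, and are called shRNA A and shRNA B (ShA and ShB in the labels). The third population carried a control shRNA (ShSC). All 3 were selected with puromycin and kept for 7 days in DMEM with 2% horse serum, and polyadenylated RNA of each gave 1 library. The comparison asks which of these genes differ between cultures with lowered Tead4 and the control culture after 7 days in this medium. Each shRNA was sequenced once, nothing in the labels describes repeat cultures, and p-values therefore measure only the spread between these libraries. In a bulk culture, fewer cells of a type and less RNA per cell cannot be told apart.

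Integrins are pairs of 1 alpha and 1 beta chain that span the cell membrane, bind matrix outside the cell and hold actin through adaptor proteins inside it. The alpha chain sets much of what is bound: Itga3, Itga6 and Itga7 with Itgb1 bind laminins, Itga5 with Itgb1 binds fibronectin, Itgav with its several beta partners binds ligands that carry the Arg-Gly-Asp motif, and Itga1, Itga2 and Itga11 with Itgb1 bind collagens. Laminins are trimers of 1 alpha, 1 beta and 1 gamma chain that polymerise into the sheet of the basement membrane, and nidogens tie that sheet to collagen IV. In skeletal muscle the main laminin holds the Lama2 chain, and it is held by Itga7 with Itgb1 and by the dystroglycan complex. Loss of Lama2 or of Itga7 causes muscle disease in mice and humans.

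The libraries held 19918954 reads with shRNA A, 15594305 with shRNA B and 16412139 with the control shRNA. Tead4 itself had 19.7 and 10.8 CPM (reads scaled to library depth) with shRNA A and shRNA B and 78.2 CPM in the control library, which is lower than the control by a log2 fold change of -2.35 ± 0.27 (SE; edgeR quasi-likelihood adjusted p = 2.82e-06). The 10 myotube markers summed to 14049 CPM with shRNA A, 17173 CPM with shRNA B and 23842 CPM in the control library, and 5 of them fell. The 6 smooth muscle markers summed to 4116, 3203 and 1708 CPM in the same order of libraries, and 3 of them rose, while Myh11, the defining smooth muscle myosin, stayed below 1 CPM in each library. Markers of endothelial cells, platelets, epithelia and Schwann cells each summed to between 0.934 and 7.16 CPM in a library, and the leukocyte list to between 8.19 and 14.0 CPM, most of it Itgb2 itself. Fibroblast markers summed to 3040, 1853 and 1945 CPM and markers of undifferentiated myogenic cells to 472, 489 and 384 CPM. Most of the fibroblast sum was Col3a1 (2838, 1646 and 1582 CPM), which did not pass the edgeR test, while Dcn fell (174, 189 and 340 CPM). Among the undifferentiated markers Cd34 rose (26.4, 22.5 and 10.5 CPM) and Myf5 fell (13.0, 16.8 and 37.9 CPM). Genes of these lists that are outside the table were not analysed here.

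Of the 34 genes, 32 had at least 10 reads over the 3 libraries and entered the test. The other two, Itga2 and Lama3, were undetected. Itga2, a collagen receptor chain of platelets and epithelia, had 0 reads with shRNA A, 4 with shRNA B and 2 in the control library. Lama3, an epithelial laminin chain, had 1 and 2 reads with the Tead4 shRNAs and 0 in the control library. At these depths 0 reads allow a level of up to 0.149 CPM with shRNA A and 0.187 CPM in the control library. Of the 32, Itga1, Itgb4, Itgb7 and Itga8 passed the low-count filter only through a Tead4 shRNA library, and none passed only through the control library, so counts over the 32 include genes that had to differ in 1 direction.

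Itgb1, Itga7, Itgb5, Nid2 and Itga5 had the highest levels per length, in that order, in each of the 3 libraries. Per kilobase of exon, the most abundant alpha chain was Itga7, the muscle laminin receptor, at 212 and 235 CPM per kilobase with shRNA A and shRNA B and 291 in the control library. The most abundant beta chain was Itgb1, the shared partner of most alpha chains, at 348, 380 and 454 CPM per kilobase in the same order. Nid2 led the laminins and nidogens with 92.5, 62.4 and 45.7 CPM per kilobase. Among the laminin alpha chains Lama5 stood above Lama2 in each library, at 24.0, 19.0 and 23.9 against 4.28, 5.82 and 8.73 CPM per kilobase. At the low end, Itga1, Itga2b, Itga8, Itga9, Itgb4, Itgb7, Lama1, Lama4 and Lamc3 stayed below 1 CPM per kilobase in each library.

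**Figure D1:**
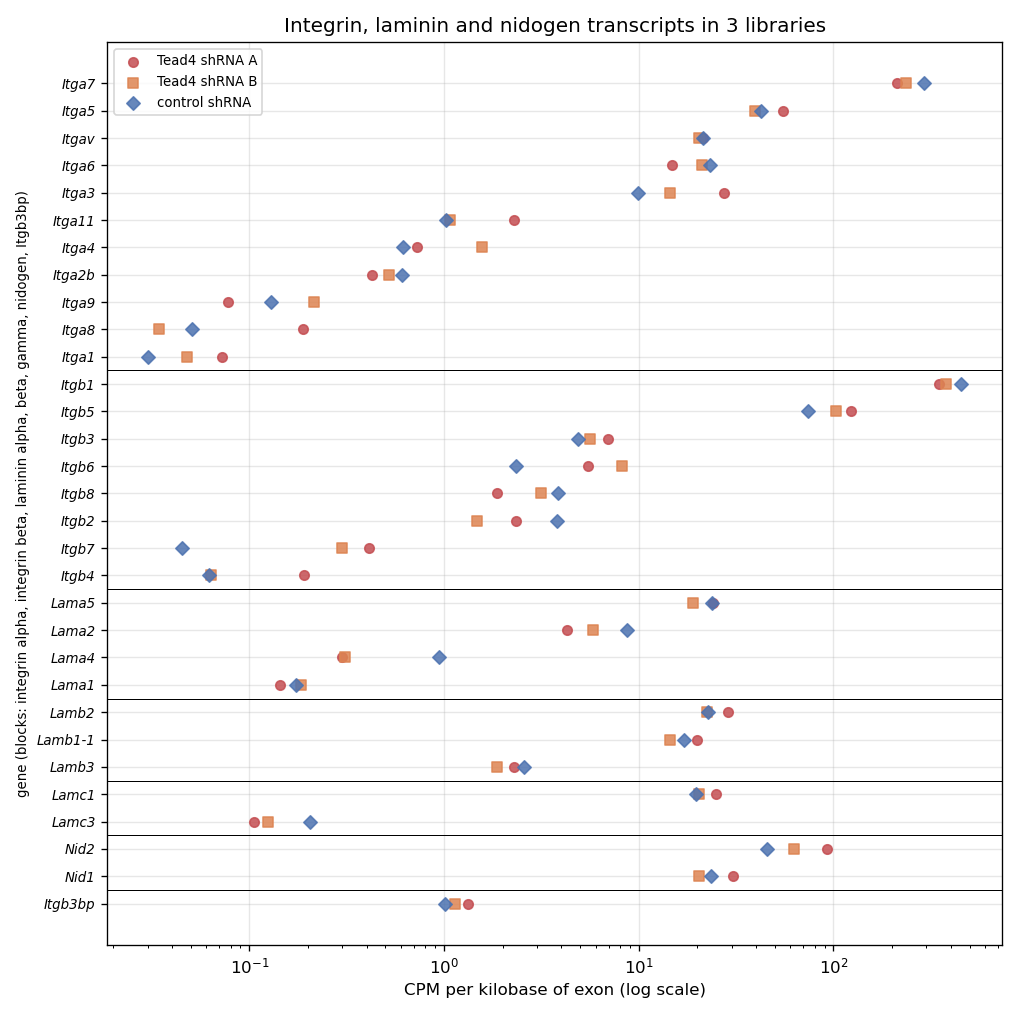
Level of the detected genes the text describes in each library, in CPM per kilobase of exon on a log axis, with 1 point per library (shRNA A, shRNA B, control shRNA) and genes in blocks by chain type. Itgb1 and Itga7 lie highest in all 3 libraries; for Itgb6, Lama2 and Lama4 both Tead4 shRNA points lie on 1 side of the control point.

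4 of the 32 tested genes passed the edgeR quasi-likelihood test across the whole table, or 12.5%, against 9.82% of all tested genes. 2 rose, Itga3 and Itgb6 (6.25%, against 5.34% of all tested genes that rose), and 2 fell, Lama2 and Lama4 (6.25%, against 4.48%). These shares are near the background of the table and are no result about the families as a whole. Both genes that rose are integrin chains and both that fell are laminin alpha chains, but no difference between the families was tested. In the edgeR test an unadjusted p under 0.05 was reached by 10 of 32 genes (31.2%), against 21.7% of all tested genes. With the dispersion taken over all 3 libraries as 1 group, 0 genes of the whole table passed and 540 had an unadjusted p under 0.05.

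For each gene, scaled counts with shRNA A and with shRNA B were divided by those of the control, and a 95% exact counting interval was put on each ratio. With shRNA A the interval lay above the control for 15 of 32 genes (46.9%, against 32.9% of all tested genes) and below it for 7 (21.9%, against 32.5%). With shRNA B it lay above for 8 (25%, against 29.7%) and below for 13 (40.6%, against 28%). Both ratios use the same control library and have no replicate check, and the intervals cover counting error only. The intervals of 6 genes lay above the control with both shRNAs (Itgb5, Nid2, Itga3, Itgb6, Itgb3 and Itgb7), or 18.8%, against 21.7% of all tested genes. Those of 7 lay below it with both (Itga7, Itgb1, Itga6, Lama2, Itgb8, Itgb2 and Lama4), or 21.9%, against 21.4% of all tested genes. In 4 of the 6 higher genes (Itgb5, Nid2, Itga3 and Itgb3) shRNA A also lay above shRNA B, or 12.5% of the 32, against 8.28% of all tested genes. At least 2-fold in both libraries, 2 genes were higher (Itgb6 and Itgb7, or 6.25%, against 4.62% of all tested genes). By the same rule 1 gene was lower (Lama4, or 3.125%, against 3.1%). The median log2 fold change was -0.04 over the 12 tested laminins and nidogens, beside 0.02 over all tested genes. Over the 15 integrin chains that passed the low-count filter through both groups it was 0.15, beside 0.00322 over all 13592 genes that did so (a restriction chosen after seeing the data). With Itga1, Itgb4, Itgb7 and Itga8, which passed only through a Tead4 shRNA library, it was 0.36 over 19 chains. These 4 genes are also among the 15 above the control with shRNA A. Itgb7 is also 1 of the 6 above the control with both shRNAs and 1 of the 2 at least 2-fold higher in both.

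**Figure D2:**
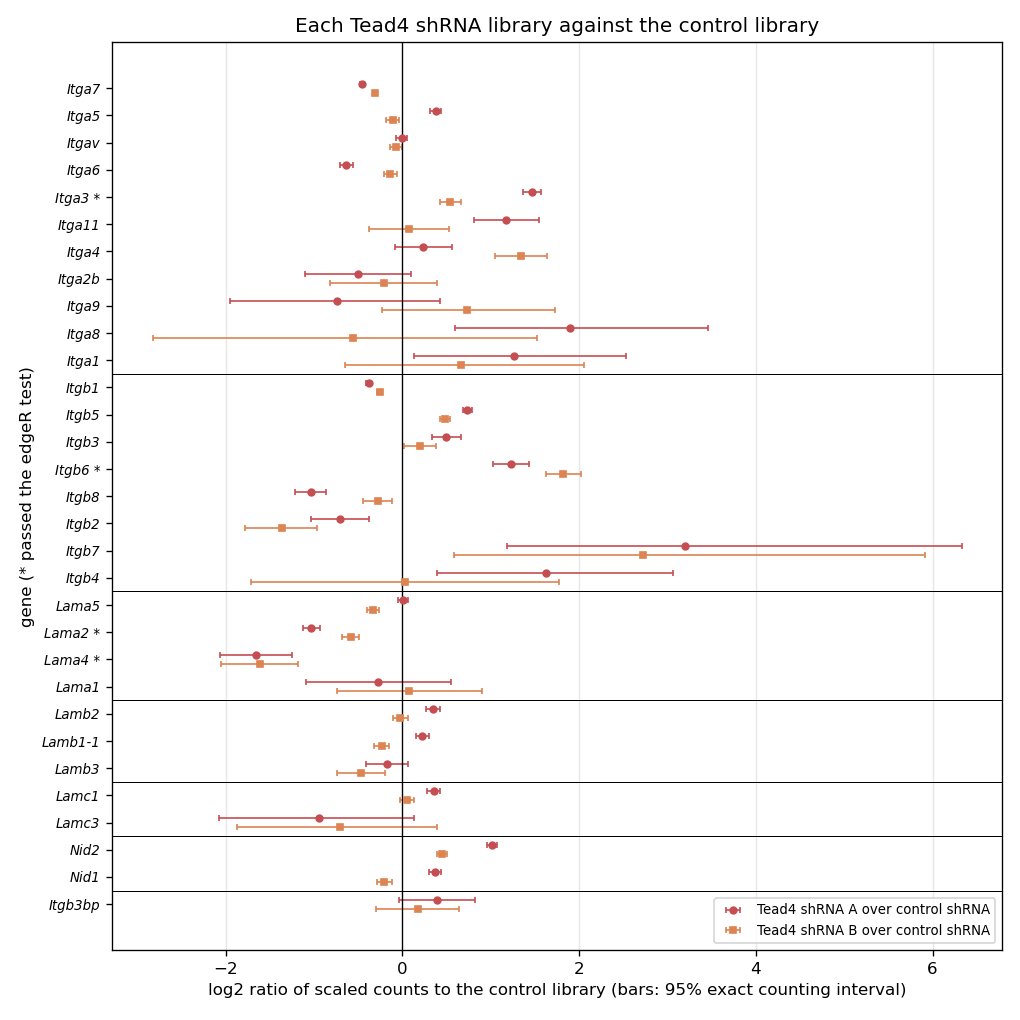
Log2 ratio of scaled counts of shRNA A and of shRNA B to the control library for each detected gene the text describes, with bars for the 95% exact counting interval and a star on the 4 genes that passed the edgeR test. Lama4 has nearly the same ratio with both shRNAs (-1.65 and -1.61), while Itga3 lies farther from 0 with shRNA A (1.47) than with shRNA B (0.54).

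The laminin-binding alpha chains went in different directions. Itga3 (ENSMUSG00000001507), a laminin receptor chain best known from epithelia, had 3155 reads with shRNA A, 1304 with shRNA B and 911 in the control library, or 157, 82.8 and 56.7 CPM. Both Tead4 shRNA libraries were above the control, and shRNA A was well above shRNA B. Over the control, its log2 ratios were 1.47 (1.36 to 1.57) for shRNA A and 0.54 (0.42 to 0.67) for shRNA B. Itga3 rose by a log2 fold change of 1.08 ± 0.29 (SE; edgeR adjusted p = 0.0198), but its call ended with RLE scaling (adjusted p = 0.0532), with DESeq2 (0.642) and with the dispersion taken over all 3 libraries as 1 group (0.885).

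Itga7 and Itga6, the other laminin-binding chains, were lower with both shRNAs in their ratios, but neither passed the test. Itga7 (ENSMUSG00000025348) had 34535 and 30024 reads with shRNA A and shRNA B and 37851 in the control library, or 1717, 1905 and 2357 CPM. Its log2 ratios were -0.46 (-0.48 to -0.44) and -0.31 (-0.33 to -0.29), and its log2 fold change was -0.38 ± 0.24 (SE; edgeR adjusted p = 0.398). With this many reads the counting intervals are narrow. The SE rests mostly on a spread between libraries shared over the tested genes, and little on the spread of Itga7 itself. Itga6, which pairs with Itgb1 in muscle precursors and with Itgb4 in epithelia, had 135, 190.3 and 209 CPM, lowest with shRNA A (log2 fold change -0.36 ± 0.24, edgeR adjusted p = 0.426). Summed over Itga3, Itga6 and Itga7, the laminin-binding alpha chains reached 2008 CPM with shRNA A, 2178 with shRNA B and 2623 in the control library, so the higher Itga3 level left the sum below the control with both shRNAs (0.766-fold and 0.831-fold).

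Itgb1 (ENSMUSG00000025809), the beta chain of these laminin receptors, had 28587 and 24431 reads with shRNA A and shRNA B and 29740 in the control library, or 1421, 1550.4 and 1852 CPM. It stood below the control with both shRNAs in its ratios (-0.38 and -0.26 on the log2 scale), with a log2 fold change of -0.32 ± 0.24 (SE; edgeR adjusted p = 0.506). Itgb4, which pairs with Itga6 in the hemidesmosomes of epithelia, had 27 reads with shRNA A and 7 in each of the other two libraries.

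Among the partners of Itgav, Itgb6 carried the largest difference. Itgb6 (ENSMUSG00000026971), which with Itgav binds and activates latent TGF-beta in epithelia, had 786 reads with shRNA A, 924 with shRNA B and 267 in the control library, or 39.1, 58.6 and 16.6 CPM. Both Tead4 shRNA libraries were at least 2-fold above the control, and shRNA B was the higher of the pair. Its log2 ratios were 1.23 (1.03 to 1.44) and 1.82 (1.62 to 2.02), and it rose by a log2 fold change of 1.55 ± 0.28 (SE; edgeR adjusted p = 6.84e-04). The epithelial marker list, summed, was 4.52 CPM with shRNA A, 4.32 with shRNA B and 7.16 in the control library, and the part of such cells in the Itgb6 result was not tested.

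Itgb5, a vitronectin receptor chain and the most abundant of the beta chains known mainly as partners of Itgav, had 8760 and 5759 reads with shRNA A and shRNA B and 4199 in the control library, or 435, 365 and 262 CPM. Both ratios were above the control (0.74 and 0.48 on the log2 scale), but the log2 fold change of 0.61 ± 0.25 did not pass (SE; edgeR adjusted p = 0.132). Itgb3, the beta chain of the platelet fibrinogen receptor and a partner of Itgav in many cells, had 40.9, 33.1 and 28.9 CPM (0.36 ± 0.24, edgeR adjusted p = 0.439). Itgb8, which with Itgav also binds latent TGF-beta, was the only one of these partners below the control in both libraries, at 20.7 and 35 CPM with shRNA A and shRNA B and 42.5 CPM in the control library (-0.61 ± 0.27, edgeR adjusted p = 0.170).

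Itgav, their common alpha chain, differed little between libraries: 229, 218 and 230 CPM, with a log2 fold change of -0.04 ± 0.23 (SE; edgeR adjusted p = 0.956) whose sign turns with upper-quartile or total-count scaling. The sum of Itgb3, Itgb5, Itgb6 and Itgb8 was 536 CPM with shRNA A, 492 with shRNA B and 350 in the control library. Relative to the control this is 1.53-fold (1.49 to 1.58) and 1.41-fold (1.36 to 1.46), with intervals for counting error only. Most of the sum was Itgb5 (435, 365 and 262 CPM), which did not pass the test, and Itgb8 went the other way. For Itgav alone the intervals of the log2 ratio were -0.07 to 0.06 and -0.14 to -0.01.

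Itga5, the fibronectin receptor chain, was on opposite sides of the control with the 2 shRNAs. It had 5483 reads with shRNA A, 3057 with shRNA B and 3362 in the control library, or 273, 194 and 209 CPM, and log2 ratios of 0.38 (0.32 to 0.44) and -0.11 (-0.18 to -0.04). Nid1 and Lamb1-1 (the table's symbol for Lamb1) behaved the same way, and these 3 of 32 genes (9.38%) compare with 3.16% of all tested genes. None of the 3 passed the test across both shRNAs (edgeR adjusted p = 0.798 for Itga5, 0.865 for Nid1 and 0.984 for Lamb1-1).

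The remaining integrin chains had few reads. Itga11, a collagen receptor chain of mesenchymal cells, had 237 reads with shRNA A, 87 with shRNA B and 84 in the control library, so only shRNA A stood apart (log2 ratio 1.17, 0.81 to 1.55). Itga4, which binds VCAM1 and fibronectin, had 204, 343 and 138 reads, and there only shRNA B stood apart (1.34, 1.05 to 1.64). Neither passed the test (edgeR adjusted p = 0.317 for Itga11 and 0.140 for Itga4). Itgb2, the leukocyte beta chain, had 143 and 71 reads with shRNA A and shRNA B and 186 in the control library (log2 fold change -0.99 ± 0.34, edgeR adjusted p = 0.0747). Of the other leukocyte markers in the table, Itgam, an alpha partner of Itgb2, and Csf1r stayed below 1 CPM in each library. Cd68, a macrophage marker, had 2.24 and 2.79 CPM with shRNA A and shRNA B and 1.37 CPM in the control library and did not pass the test (edgeR adjusted p = 0.441). The part of leukocytes in the Itgb2 reads was not tested.

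Itgb7, a lymphocyte beta chain, had 23 and 13 reads with shRNA A and shRNA B and 2 in the control library. Its log2 ratios were 3.20 and 2.73, with intervals of 1.18 to 6.33 and 0.58 to 5.92 that show how little 2 reads fix, and it did not pass the test (log2 fold change 2.92 ± 1.23, edgeR adjusted p = 0.155). Itga2b of platelets had 47, 45 and 53 reads, Itga9 had 12, 26 and 16, Itga1 had 27, 14 and 9, and Itga8 had 28, 4 and 6. None of these passed the test, and for Itga8 and Itga1 only the shRNA A interval lay above the control. Itgb3bp, no integrin, had 123 and 83 reads with shRNA A and shRNA B and 75 in the control library and did not pass; it shares 398 exonic bases with Pgm1 on the other strand, which had 2291, 1908 and 2441 reads.

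Both laminin genes that fell code for alpha chains. Lama2 (ENSMUSG00000019899), the alpha chain of the main muscle laminin, had 1407 reads with shRNA A, 1499 with shRNA B and 2290 in the control library, or 69.9, 95.1 and 143 CPM. Both Tead4 shRNA libraries were below the control, shRNA A more so, with log2 ratios of -1.03 (-1.12 to -0.93) and -0.58 (-0.68 to -0.49). Lama2 fell by a log2 fold change of 0.79, with an SE of 0.23 (edgeR adjusted p = 0.0290), and its call ended with upper-quartile scaling (adjusted p = 0.0530), with DESeq2 (0.0744) and with the dispersion over 1 group (0.885). The summed myotube markers were lower in the same libraries (14049 and 17173 CPM with shRNA A and shRNA B, 23842 CPM in the control library), and their part in the Lama2 result was not tested.

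Lama4 (ENSMUSG00000019846), an alpha chain of blood vessel, fat and nerve basement membranes, had 73 reads with shRNA A, 59 with shRNA B and 183 in the control library, or 3.63, 3.74 and 11.4 CPM. The Tead4 shRNA libraries lay within counting error of each other and both below the control, with log2 ratios of -1.65 (-2.06 to -1.25) and -1.61 (-2.05 to -1.18). Lama4 fell by a log2 fold change of 1.63, with an SE of 0.34 (edgeR adjusted p = 0.00322), and of 9 other settings only the dispersion over 1 group ended its call. Markers of endothelial cells, which are known to make Lama4, summed to 1.19, 1.40 and 0.934 CPM in the same order.

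Lama5, the most abundant alpha chain here and a widespread one in development, had 5499 and 3409 reads with shRNA A and shRNA B and 4366 in the control library, or 273, 216 and 272 CPM. Only shRNA B was below the control (log2 ratio -0.33, -0.39 to -0.26), and the gene did not pass (-0.15 ± 0.24, edgeR adjusted p = 0.796). Lama1, an alpha chain of early embryos, had 28, 28 and 27 reads, with no difference detectable at this depth.

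Alpha chains need a beta and a gamma chain to form a trimer, and Lamb1-1, Lamb2, Lamb3, Lamc1 and Lamc3 did not pass the test. Lamc1, the gamma chain of most laminins, had 207 and 168 CPM with shRNA A and shRNA B and 162 CPM in the control library (log2 fold change 0.21 ± 0.24, edgeR adjusted p = 0.689). Lamb2, a beta chain of mature muscle and synaptic basement membrane, had 175, 136 and 138 CPM (0.17 ± 0.24, edgeR adjusted p = 0.757), and Lamb1-1, the beta chain found more widely, had 198, 144 and 170 CPM. In Lamc1, Lamb2 and Lamb1-1 shRNA A was the highest library. Lamb3, an epithelial chain, had 304, 194 and 274 reads, or 15.1, 12.3 and 17.1 CPM, highest in the control library. Only its shRNA B interval lay below the control (log2 ratio -0.47, -0.74 to -0.20). Lamc3, a minor gamma chain, had 13, 12 and 20 reads, or 0.646, 0.762 and 1.25 CPM.

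The 2 nidogens were highest with shRNA A. Nid2 had 9625 reads with shRNA A, 5088 with shRNA B and 3800 in the control library, or 478, 323 and 237 CPM, with log2 ratios of 1.02 (0.96 to 1.07) and 0.45 (0.39 to 0.51). Both Tead4 shRNA libraries were above the control, but the gene did not pass the test (0.76 ± 0.27, edgeR adjusted p = 0.0777). It shares 437 exonic bases with Rtraf on the other strand, whose 1097, 1306 and 1285 reads cannot be told apart there from those of Nid2, since the library kit does not mark the strand. Nid1 had 211 and 142 CPM with shRNA A and shRNA B and 163 CPM in the control library (0.11 ± 0.25, edgeR adjusted p = 0.865). The nidogens together were 1.72-fold (1.67 to 1.78) the control with shRNA A and 1.16-fold (1.12 to 1.20) with shRNA B, against 1.03-fold and 0.855-fold for the laminins together.

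Read as shares within a class, which do not depend on the scaling between libraries, the leading member of each integrin class took less with the Tead4 shRNAs. Of the integrin alpha reads, Itga7 took 67.7% with shRNA A (95% exact interval 67.3–68.1), 72.6% with shRNA B (72.2–73.1) and 76.5% in the control library (76.1–76.9). Itga3 took 6.18%, 3.15% and 1.84% in the same order. Itgb1 took 72.3% of integrin beta reads with shRNA A, 75.7% with shRNA B and 83.7% in the control library, while Itgb5 took 22.1%, 17.8% and 11.8%. In both classes the intervals of the 3 libraries for the leading chain do not overlap, and shRNA B lies between shRNA A and the control. With 1 library each, these intervals cover counting error only and are narrow at this many reads. Neither Itga7 nor Itgb1 passed the test (edgeR adjusted p = 0.398 and 0.506).

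Within the laminin alpha reads Lama2 took 20.1% with shRNA A (interval 19.1–21.0), 30.0% with shRNA B (28.7–31.3) and 33.4% in the control library (32.2–34.5). Lama5 took 78.5%, 68.2% and 63.6%. The Lama2 share was lowest with shRNA A, where it was well outside the other intervals, and the intervals of shRNA B and the control did not overlap either. These intervals too cover counting error only. Nid2 took 69.4% and 69.5% of nidogen reads with shRNA A and shRNA B and 59.2% in the control library.

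**Figure D3:**
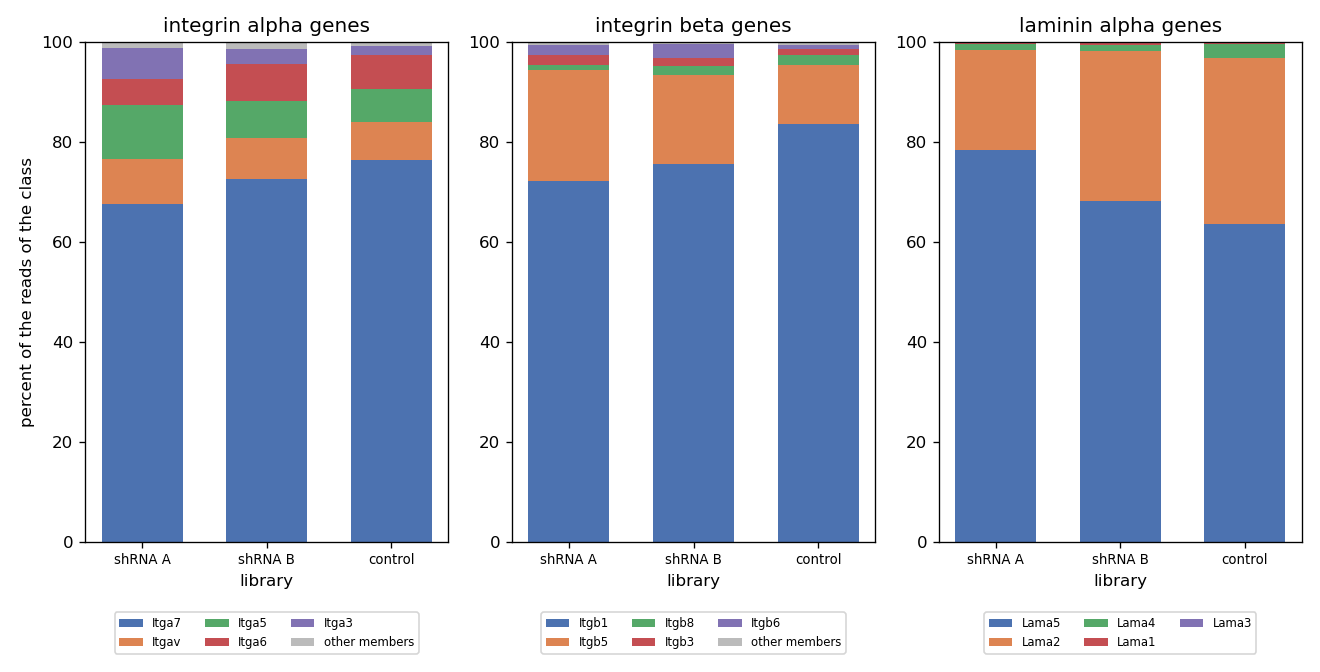
Stacked bars give each gene's percent of the reads of its class (integrin alpha, integrin beta, laminin alpha) in the shRNA A, shRNA B and control libraries, not corrected for gene length. The Itga7 band (67.7%, 72.6% and 76.5%), the Itgb1 band (72.3%, 75.7% and 83.7%) and the Lama2 band (20.1%, 30.0% and 33.4%) are each smallest with shRNA A and largest in the control library.

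The 2 Tead4 shRNA libraries differed from each other beyond counting error in most of these genes. The shRNA A interval lay above shRNA B in 16 of 32 genes (50%, against 25.4% of all tested genes) and below it in 9 (28.1%, against 25.3%). The 16 include Itgb4 (27, 7 and 7 reads) and Itga8 (28, 4 and 6 reads). Both passed the low-count filter only through the shRNA A library, so they had to be higher there. Among laminins and nidogens 7 of 12 were higher with shRNA A (58.3%, against 25.4% of all tested genes): Nid2, Nid1, Lama5, Lamc1, Lamb1-1, Lamb2 and Lamb3. Lower with shRNA A were 2 of the 12 (16.7%, against 25.3%), among them Lama2 (log2 ratio -0.44). Nid2 and Nid1 had the same log2 ratio of shRNA A to shRNA B (0.57 each), and Itga3 had 0.92. Itgb6 (-0.59), Itgb8 (-0.76) and Itga4 (-1.10) were on the other side. Tead4 was lower with shRNA B than with shRNA A. Itga3, Nid2 and Lama2 were farther from the control with shRNA A, while Itgb6, Itga4 and Itgb2 were farther from it with shRNA B, and a relation to the Tead4 level was not tested. With 1 library per shRNA, the sequence targeted, the culture and the library cannot be told apart in these differences.

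Promoter sequences are shown for the called genes with an entry and for the 2 best covered genes whose window holds the TEAD hexamer. They are the 250 bases before the annotated start in RefSeq, on build GRCm38.p6, read 5′ to 3′ on the strand of the gene. Capitals mark the hexamer CATTCC or its reverse complement GGAATG, the core that TEAD factors bind, and the E-box CANNTG, which reads the same way on both strands and is bound by myogenic factors such as MyoD. Itgb6 (chr2:60722604-60722853, minus strand), Itga3 (chr11:95076715-95076964, minus strand) and Lama2 (chr10:27616943-27617192, minus strand) come first, and Itgb1 (chr8:128685404-128685653, plus strand) and Nid1 (chr13:13437352-13437601, plus strand) follow.
Itgb6: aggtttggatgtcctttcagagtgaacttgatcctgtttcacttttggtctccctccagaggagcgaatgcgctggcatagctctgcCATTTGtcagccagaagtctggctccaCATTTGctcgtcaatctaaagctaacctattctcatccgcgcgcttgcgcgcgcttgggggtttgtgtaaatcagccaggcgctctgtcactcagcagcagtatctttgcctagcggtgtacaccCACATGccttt
Itga3: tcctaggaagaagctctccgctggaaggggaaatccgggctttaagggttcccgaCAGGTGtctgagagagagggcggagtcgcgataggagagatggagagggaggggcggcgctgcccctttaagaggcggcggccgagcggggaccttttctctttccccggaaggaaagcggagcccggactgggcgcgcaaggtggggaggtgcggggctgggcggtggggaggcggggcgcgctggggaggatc
Lama2: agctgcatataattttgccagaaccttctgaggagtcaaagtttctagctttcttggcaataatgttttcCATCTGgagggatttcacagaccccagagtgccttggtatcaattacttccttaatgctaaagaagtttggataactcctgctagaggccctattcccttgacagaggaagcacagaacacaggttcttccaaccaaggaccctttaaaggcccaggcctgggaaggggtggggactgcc
Itgb1: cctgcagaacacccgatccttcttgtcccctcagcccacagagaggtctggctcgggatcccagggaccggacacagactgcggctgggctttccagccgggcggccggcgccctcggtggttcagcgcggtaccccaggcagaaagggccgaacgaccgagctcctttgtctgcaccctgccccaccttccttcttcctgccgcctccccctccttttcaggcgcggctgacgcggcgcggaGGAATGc
Nid1: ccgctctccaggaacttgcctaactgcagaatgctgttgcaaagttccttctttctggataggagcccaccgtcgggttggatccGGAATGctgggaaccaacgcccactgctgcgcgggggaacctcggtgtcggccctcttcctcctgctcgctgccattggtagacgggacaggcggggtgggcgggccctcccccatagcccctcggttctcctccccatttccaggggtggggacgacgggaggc
The Itgb6 window shown holds 3 E-boxes and those of Itga3 and Lama2 hold 1 each, with no hexamer in any of the 3. Itgb6 and Itga3 each have another window, not shown, with 3 E-boxes for Itgb6, 1 for Itga3 and no hexamer. Lama4 and Itga7 had no entry. The Itgb1 hexamer ends 1 base before the start and the Nid1 hexamer 159 bases before it, and neither window holds an E-box. RefSeq gave 25 windows for 22 of the 34 genes. The hexamer stood in 3 of the 25 windows (12%, the third being a Lamb3 window), against 12.6% of all 32851 windows of that length. E-boxes stood in 20 of them (80.0%), against 66.2% of all windows. A match is a description of letters and not a binding site, and binding away from the start was not analysed here.

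Genes that work with these families were taken from 4 lists. In the list of integrin adaptors and focal adhesion proteins, 4 of 22 tested genes rose and 2 fell (27.3% called, against 9.82% of all tested genes), and the median log2 fold change was 0.30, beside 0.02 over all tested genes. The actin linkers Tns3 (351, 254 and 126 CPM), Actn4 (647, 472 and 271 CPM) and Actn1 (628, 435 and 287 CPM) rose by 1.27 ± 0.26, 1.05 ± 0.27 and 0.89 ± 0.27 on the log2 scale (SE; edgeR adjusted p = 0.00270, 0.0128 and 0.0370). All 3 were highest with shRNA A and lowest in the control library, and the call of Actn1 ended with RLE scaling. Itgb1bp3, a muscle kinase of nicotinamide riboside, also rose (46.2, 51.1 and 15.8 CPM), and Lims2, an adaptor of the integrin-linked kinase complex, fell (14.0, 12.1 and 23.9 CPM). Itgb1bp2, melusin, a muscle protein that binds the tail of Itgb1, fell: it had 64.4 and 71.0 CPM with shRNA A and shRNA B and 134 CPM in the control library (-0.99 ± 0.21, edgeR adjusted p = 0.00382). The summed smooth muscle markers, which include actin-binding proteins, were also higher with the Tead4 shRNAs (4116 and 3203 CPM, against 1708 CPM in the control library), and their part in the adaptor result was not tested.

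Of the other basement membrane proteins, 7 of 15 tested genes rose and 1 fell (53.3% called, against 9.82% of all tested genes). The median log2 fold change of the 15 was 0.47. Col4a1 had 308, 183 and 121 CPM and Col4a2, its partner in the collagen IV trimer that nidogens bind, had 277, 160.2 and 106 CPM. They rose by 1.02 ± 0.28 and 1.04 ± 0.28 on the log2 scale (SE; edgeR adjusted p = 0.0215 and 0.0206). Pxdn, the peroxidase that cross-links collagen IV, had 204, 123 and 82.3 CPM and rose by 0.99 ± 0.27 (edgeR adjusted p = 0.0223). All 3 stood in the order shRNA A, shRNA B, control, as Nid2 did, and the call of Pxdn ended with RLE scaling. The other genes that rose did not share a clear step from shRNA A to shRNA B. Fras1 (14.6, 16.6 and 4.55 CPM), Frem2 (7.56, 12.6 and 3.86 CPM) and Smoc1 (5.17, 5.52 and 1.93 CPM) had their highest level with shRNA B. In all 3 the intervals of the log2 ratio to the control overlapped between the shRNAs, narrowly in Frem2 (0.53 to 1.42 and 1.28 to 2.14). Col18a1 had 60.8, 59.6 and 33.6 CPM. Npnt, nephronectin, a ligand of the integrin that holds Itga8, fell: it had 372 and 511 CPM with shRNA A and shRNA B and 780.1 CPM in the control library (-0.82 ± 0.25, edgeR adjusted p = 0.0367), a call that ended with RLE and with upper-quartile scaling.

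Among laminin receptors other than integrins and the proteins linked to them, 0 of 16 rose and 2 fell (12.5% called), with a median of -0.11. Dmd, dystrophin, which links dystroglycan to actin, had 24.9 and 27.8 CPM with shRNA A and shRNA B and 89.6 CPM in the control library (-1.77 ± 0.22, edgeR adjusted p = 8.12e-06). Bcam, a receptor for laminins with the Lama5 chain, had 58.1, 58.5 and 101 CPM (-0.79 ± 0.21, edgeR adjusted p = 0.0179). In both genes the Tead4 shRNA libraries lay close together below the control. Dag1, dystroglycan itself, the laminin receptor of this complex, did not pass the test: it had 980.2 and 925 CPM with shRNA A and shRNA B and 902 CPM in the control library, and it is named here after its values were seen.

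Of integrin ligands outside the basement membrane, 5 of 14 tested genes rose and 1 fell (42.9% called, against 9.82% of all tested genes). The median log2 fold change of the 14 was 0.43. Their median log2 ratio to the control was 0.50 with shRNA A and only 0.06 with shRNA B. Thbs1, thrombospondin, had 6666 and 3593 CPM with shRNA A and shRNA B and 2022 CPM in the control library (1.34 ± 0.31, edgeR adjusted p = 0.00687), a call that ended with DESeq2. Cyr61, a matricellular ligand of Itgav integrins, had 307, 234 and 86.1 CPM (1.65 ± 0.26, edgeR adjusted p = 2.05e-04), and Tnc, tenascin, had 143, 85.6 and 48.1 CPM (1.25 ± 0.27, edgeR adjusted p = 0.00433). Each of these 3 was highest with shRNA A and lowest in the control library. Postn, periostin, another ligand of Itgav integrins, fell: it had 104 and 94.3 CPM with shRNA A and shRNA B and 190.1 CPM in the control library (-0.94 ± 0.22, edgeR adjusted p = 0.00671).

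**Figure D4:**
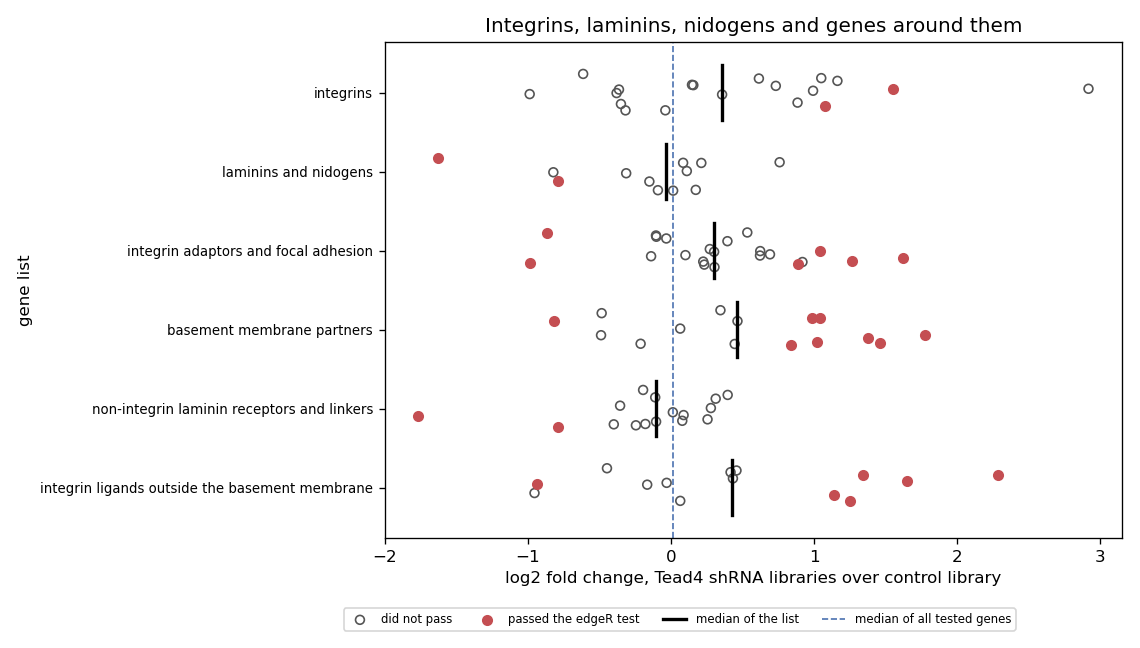
Log2 fold change of the Tead4 shRNA libraries over the control library for each tested integrin, each laminin or nidogen and each gene of the 4 other lists, with filled points for genes that passed the edgeR test, a bar at each list's median and a dashed line at the median of all tested genes (0.02). The called laminins lie left of 0 and the called integrins right of it; the medians run from -0.11 (non-integrin laminin receptors and linkers) to 0.47 (basement membrane partners), and the integrin bar (0.36) includes the 4 genes that passed the low-count filter only through a Tead4 shRNA library.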

How the data were processed

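Raw read counts per library, 1 row to an Ensembl gene, were used as deposited. The normalized values the authors placed beside it are a score: each equals the count times 1 factor per library, rounded (factors 0.801, 1.02 and 1.00 for shRNA A, shRNA B and control; 0 values off by over 1). They served only as an alternative scaling. TopHat 1.0.12, Cufflinks 0.8.2, DESeq and mm9 are named, per the submitters' processing notes; the read counter and annotation release are not given in the sources used here, nor is the treatment of reads that fit several genes.

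Genes passing filterByExpr (14478) were fitted with edgeR 4.0.16 in R 4.3.3 (TMM factors 1.01, 1.01 and 0.979; quasi-likelihood F test, legacy method), the 2 Tead4 shRNA libraries against the control, with Benjamini-Hochberg adjustment over all tested genes and a threshold of 0.05. This leaves 1 residual degree of freedom, and the lone control library is assumed to vary like the others (biological coefficient of variation 16.4%). The spread of each gene is drawn toward that of all tested genes, with 20.9 prior degrees of freedom, so SE and p-values rest mostly on the shared spread. SE is the absolute log2 fold change over the square root of F. CPM uses TMM-scaled library sizes. Ratios between libraries carry 95% exact (Clopper-Pearson) intervals. Intervals cover counting error only, since PCR reads without molecular identifiers are not independent molecules. Genes under 10 summed reads are listed as undetected.

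Exon lengths and overlaps came from GENCODE M21 on a later build (18701 of 20162 identifiers matched, all 34 genes included), so no gene coordinates of mm9 are given; promoter windows and their coordinates are those of RefSeq on GRCm38.p6. On simulated counts for 14478 genes with 200 changed, 99.0% of genes with a log2 change of 2 and 55.0% with a change of 1 were recovered, and 0.0840% of unchanged genes were called. The changed genes were drawn from those with a mean above 5 CPM, so the recovered shares do not cover genes below that level. All libraries, the control included, were drawn with the fitted spread. The simulation therefore cannot check the spread assumed for the lone control.

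1 gene of the rule is counted but not reported here. The genes, lists and tests were chosen with earlier results of these data known. Values are given in full for members that passed the test or were at least 2-fold changed one way in both libraries, and for the 3 alpha chains, 3 beta chains and 3 laminins or nidogens with most reads per kilobase; from each other list, for the 4 called genes with the highest CPM. Alternatives were RLE, upper-quartile and total-count scaling, DESeq2 1.42.0, limma-voom (limma 3.58.1), the edgeR 4 method, a dispersion over 1 group, other low-count filters and, chosen after seeing the data, the authors' factors.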

Additional observations from a re-analysis of the deposited data

How the results depend on the processing

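Of the members, 2 rose and 2 fell in the edgeR test. The count that rose was 1 with RLE scaling, 1 with DESeq2, 4 without the low-count filter and 0 with the dispersion over 1 group; the count that fell was 1 with upper-quartile scaling, 1 with DESeq2 and 0 with the dispersion over 1 group. That last setting called 0 genes in the whole table (540 at an unadjusted p under 0.05) and 0 of the 16 higher and 0 of the 6 lower genes of the other lists. Without the filter Nid2, Itga4 and Itgb2 passed (edgeR adjusted p = 0.0279, 0.0438 and 0.0336). Itgb6 and Lama4 were called under 8 of 9 alternatives, Itga3 and Lama2 under 6. Of the list genes named, Actn1, Pxdn and Npnt lost their call with RLE scaling, Npnt also with upper-quartile scaling, and Thbs1 with DESeq2. The sign turned for Itgav with upper-quartile (6.69e-04) and total-count scaling (0.00684), and with limma-voom for Lamb1-1 (-0.00641) and Itga9 (-0.0764), none of which passed the test. Counts of ratio intervals above or below the control, and of shRNA A above or below shRNA B, stayed within 1.5 times under each scaling run, the authors' factors included. The causes were not tested. Leaving out a Tead4 shRNA library leaves 1 library against 1, so it gives the ratios in the report and no test. No paired analysis was possible because the control group has 1 library. Depth limits Itga1, Itga8, Itga9, Itgb4, Itgb7, Lama1 and Lamc3, with under 30 reads in each library.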
